A study of Mus musculus with 14 samples.

Results

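RNA-SEQ counts were examined for 10 genes of nicotinic acetylcholine signalling in whole mouse brain at postnatal day 2 (P2). They are the receptor modulators Lynx1, Lypd1 and Lypd6, the receptor subunits Chrna3, Chrna4, Chrna5, Chrna7 and Chrnb2, and Chat and Slc5a7, which mark cholinergic nerve cells. They were taken by symbol, and all 10 were found among the 17927 genes in the counts. The choice was made with genotype differences in these data known, so the values for Capn15 KO against WT are given below as a description. Calls of tests on that contrast are counted only to set them beside the share of all genes, and they are no support for the choice. The study asked which transcripts differ when Capn15, a calpain protease of the small optic lobe family, is lost. Brains came from 7 WT and 7 KO untreated mice of 6 litters, in lines made on C57BL/6J mice. The methods name a lacZ-Neo allele and a FLOXed allele and tie neither of them to the sequenced brains. Each KO brain had the replicate number of a WT litter mate. Litter B gave replicates 2 and 3 of both genotypes, and each other litter gave 1 pair. Which KO brain goes with which WT brain in litter B rests on the replicate number alone, and counts of pairs depend on it. There were 6 female and 8 male brains, the members of pairs 1 to 6 were of opposite sex, and both of pair 7 were male.

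Nicotinic receptors are cation channels built from subunits around a pore that opens when acetylcholine binds. In the brain the products of Chrna4 and Chrnb2 join in receptors of high affinity for nicotine, and the product of Chrna7 can form receptors alone. Proteins of the Ly6/uPAR family, held at the cell surface by a lipid anchor and related in fold to snake venom toxins, bind these receptors and alter their response. Lynx1 is best known as a brake on receptor signalling and on plasticity of the visual cortex in the adult.

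The fold of the Ly6/uPAR proteins is held by disulfide bonds between cysteines, so the cysteine-rich stretch of each modulator's coding sequence is shown with the in-frame cysteine codons in capitals. The stretch runs from the first cysteine codon that has another after 2 further codons to the first cysteine codon after an adjacent pair, as read from GENCODE M21 on GRCm38. In Lynx1 it covers codons 23 to 91 of 116, in exons 3 and 4 (chr15:74751309-74751630, minus strand). In Lypd1 it covers codons 25 to 106 of 141, in exons 2 and 3 (chr1:125873444-125910508, minus strand). In Lypd6 it covers codons 49 to 127 of 171, in exons 4 to 6 (chr2:50173627-50190682, plus strand). The spans include introns, which are left out of the sequences. Lynx1 has 10 cysteine codons in the stretch, and Lypd1 and Lypd6 have 12 each. In all 3 the adjacent pair is followed by 4 codons and then the last cysteine codon shown.
Lynx1: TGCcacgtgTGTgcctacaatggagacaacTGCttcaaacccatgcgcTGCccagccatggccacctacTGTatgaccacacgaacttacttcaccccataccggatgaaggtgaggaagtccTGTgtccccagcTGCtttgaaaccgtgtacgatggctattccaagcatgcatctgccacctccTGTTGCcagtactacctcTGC
Lypd1: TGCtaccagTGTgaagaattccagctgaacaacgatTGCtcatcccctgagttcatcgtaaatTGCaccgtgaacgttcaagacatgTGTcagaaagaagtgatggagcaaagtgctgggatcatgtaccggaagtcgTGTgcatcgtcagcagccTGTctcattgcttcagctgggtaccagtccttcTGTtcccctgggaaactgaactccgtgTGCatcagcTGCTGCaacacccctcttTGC
Lypd6: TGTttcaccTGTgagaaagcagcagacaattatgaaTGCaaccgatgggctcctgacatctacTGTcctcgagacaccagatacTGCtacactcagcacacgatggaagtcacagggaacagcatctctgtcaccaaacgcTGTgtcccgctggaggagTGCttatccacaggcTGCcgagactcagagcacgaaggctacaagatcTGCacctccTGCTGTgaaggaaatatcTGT

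Adjacent cysteines also mark the alpha subunits of nicotinic receptors, where they lie at the acetylcholine site. The same search found exactly 1 such pair in each of the 4 alpha members and 0 in Chrnb2, a beta subunit. The windows below, 30 bases each, have the pair in capitals and show the feature by which the alpha members differ from Chrnb2. The genes without a printed sequence are Chrnb2 (chr3:89746195-89764632), Chat (chr14:32408203-32465989) and Slc5a7 (chr17:54273590-54299034), all on the minus strand.
Chrna3, codons 222 and 223, exon 5, minus strand, chr9:55015842-55015871: atcaagtacaacTGCTGTgaggagatctac
Chrna4, codons 227 and 228, exon 5, minus strand, chr2:181029266-181029295: aggaagtatgaaTGCTGTgccgagatctat
Chrna5, codons 205 and 206, exon 5, plus strand, chr9:55004605-55004634: cggacggacagcTGCTGCtggtacccctgc
Chrna7, codons 212 and 213, exon 7, minus strand, chr7:63106146-63106175: aagttctatgaaTGCTGCaaagagccatac

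Libraries held between 37620954 and 70910163 counts, so a gene with 3 counts was at 0.0423 to 0.08 CPM (counts per 1000000 counts of the library, scaled with TMM factors). Capn15 itself was at 25.4 ± 3.07 CPM in WT and 14.5 ± 2.67 in KO (SD, n = 7 each) and was lower in KO in 6 of 7 pairs. The pair of litter F went against its labels, with the libraries labelled WT replicate 7 and KO replicate 7 at 18.7 and 20.2 CPM, so values are also given without it. The labels name neurons as the cell type, yet markers of glia, vessels, choroid plexus and blood were all counted, and the libraries are treated as whole brain. In such bulk samples fewer cells of a type and less RNA per cell cannot be told apart.

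Lynx1, Lypd1 and Chrnb2 were the most abundant members per length of exon. Lynx1 was at 14.2 ± 3.12 RPKM (CPM per kilobase of exon, SD, n = 7 WT brains), Lypd1 at 13.1 ± 1.12 and Chrnb2 at 12.4 ± 0.537. The WT ranges of Lynx1 and Lypd1 overlapped, as did those of Lypd1 and Chrnb2, so the order of these 3 is not settled. Chrna4 followed at 8.1 ± 0.444 RPKM and Lypd6 at 7.18 ± 0.422, again with overlapping ranges. The lowest Chrnb2 library, at 11.8 RPKM, stood above the highest Chrna4 library, at 8.94.

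The remaining subunits were lower. Chrna7 was at 3.53 ± 0.213 RPKM, below every value of Lypd6, and its lowest library, at 3.22, was above the highest of Chrna3, at 3.12. Chrna3, a subunit of ganglia and of the medial habenula, was at 2.74 ± 0.281 RPKM, Slc5a7 at 2.17 ± 0.184 and Chrna5 at 1.96 ± 0.142, each overlapping with the next. Chat, the enzyme that makes acetylcholine, was lowest at 0.278 ± 0.0706 RPKM and did not overlap with Chrna5. It was read from 32 to 94 counts per library, so its values carry the most counting error of the 10. Slc5a7, which takes choline back into cholinergic endings, was 8.24 ± 2.32 times as abundant per length as Chat in WT.

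**Figure D1:**
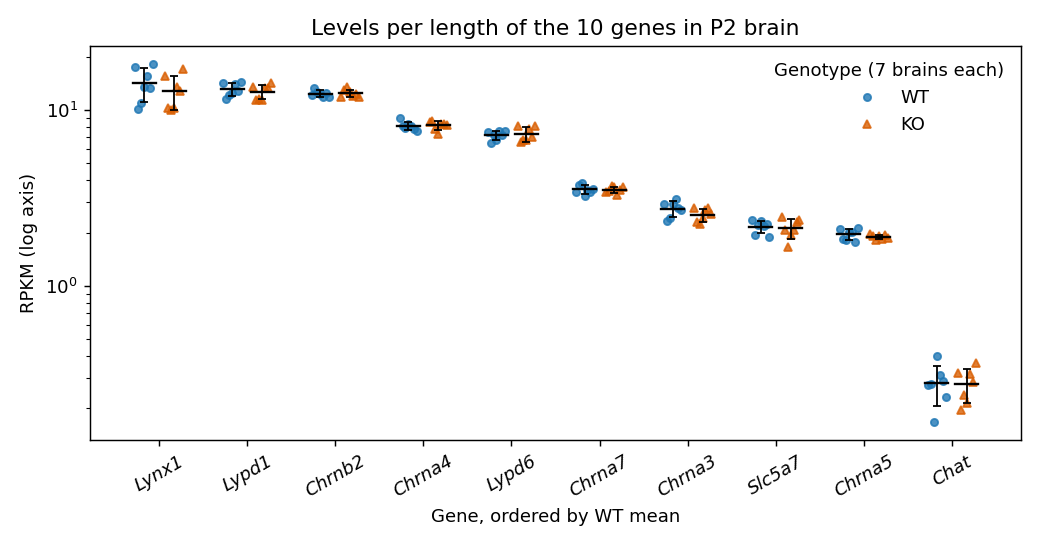
RPKM on a log axis for each of the 10 genes in 7 WT (circles) and 7 KO (triangles) brains, with the mean and SD in black and genes ordered by WT mean. Lynx1, Lypd1 and Chrnb2 share the top with WT means of 14.2, 13.1 and 12.4 RPKM, and Chat lies far below at 0.278.

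Among subunits that join in receptors, Chrna4 was 0.655 ± 0.0467 times as abundant per length as Chrnb2 in WT and 0.658 ± 0.0559 times in KO. Chrna3 exceeded its gene neighbour Chrnb4, a beta subunit, 14.2 ± 3.06 times per length in WT and 11.7 ± 2.87 times in KO. Chrnb4 was at only 0.741 ± 0.122 CPM in WT, read from 27 to 66 counts per library, so the ratio carries its counting error. Chrna5, Chrna3 and Chrnb4 lie in a row on chr9 with gaps of 2331 and 1591 bases. Chrna5 is an accessory subunit, and it was at 0.72 ± 0.062 times the level of Chrna3 per length in WT. Exons of Chrnb2 overlap exons of Adar, and exons of Lypd1 those of Gpr39, on the other strand, so without the strand setting of the counting the values of Chrnb2 and Lypd1 are uncertain by those reads. Slc18a3, the vesicle carrier of acetylcholine, lies within Chat on the same strand and shares no exon bases with it.

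Between genotypes the fitted log2 differences of the 10 genes lay between -0.18 and 0.022. EdgeR's quasi-likelihood test with litter and sex in the model called 0 of them, beside 0.00558% of all genes (1 of 17927). At an unadjusted p under 0.05 there were 2, Lynx1 and Chrna3, beside 5.14% of all genes, and both were lower in KO, which held for 2.26% of all genes. The likelihood ratio test and DESeq2 each called 1, Lynx1, beside 0.19% and 0.139% of the genes they tested. Since the genes were chosen on this contrast, nothing is read from these counts. The fitted log2 fold was below 0 for 6 of 10, beside 48.6% of all genes, and its median was -0.047 beside 0.00153 over all genes.

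Lynx1 was the member that differed most relative to its error. In WT brains its lowest, median and highest values were 47.1, 62.9 and 85.4 CPM, and in KO brains 46.8, 59.8 and 79.8. The groups overlapped over nearly their whole range. Within litter mates KO was the lower in 6 of 7 pairs. In pairs 1 to 6 the litter mates also differed in sex, so each of those gaps holds sex as well as genotype. The WT brain was the female in litters C and D, and the KO brain in A, B and E. The gap was widest in litter C, with 62.9 CPM in WT and 47.7 in KO. It was 81.7 against 73.3 in litter A, 72.5 against 62.7 in litter D, 62.5 against 59.8 in litter E and 85.4 against 79.8 in litter F. In litter B it was 50.8 against 46.8 in pair 3, and only pair 2 went the other way, with 47.1 and 48.1. The brains of litter B are matched by replicate number alone. Matched the other way, at 50.8 against 48.1 and 47.1 against 46.8, KO was the lower in each. The fitted KO minus WT difference was -0.18 on the log2 scale (SE 0.0333), and -0.19 without WT and KO replicate 7. It stayed below 0 in all 22 other settings, from -0.20 to -0.13, and was nearest to 0 without litter in the model or without either brain of litter C. These settings are not all separate, since leaving out either brain of a litter with 1 pair gave nearly the same value. The study lists Lynx1 among the genes lower in KO, from its own fit with sex and litter. Its log fold change there was farther from 0 than the -0.18 fitted here. The same was true of Capn15, fitted here at -0.806. Why the folds differ was not tested.

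Lypd1 and Chrna3 were also lower in KO in 6 of 7 pairs, and 5.52% of all genes were lower in 6 or 7 of the 7. Lypd1, also called Lynx2, had a lowest, median and highest value of 81.8, 89.7 and 101 CPM in WT and of 79.9, 94.1 and 99.6 in KO. The median was thus higher in KO while the litter mates mostly went the other way, with a fitted difference of -0.056 (log2, SE 0.0273). Chrna3 had values of 12.3, 14.5 and 16.4 CPM in WT and of 11.8, 13.4 and 14.6 in KO. Its fitted difference was -0.13 (log2, SE 0.0389), and -0.14 without WT and KO replicate 7. Both genes, like Lynx1, had their widest gap in litter C, with 15.4 CPM of Chrna3 in WT and 12.8 in KO. There the WT brain was female and the KO brain male. Over 15227 genes the deviations of these litter mates from their group means correlated at -0.467, the lowest of the 7 pairs. Chrna4 and Chat also had their lowest pair difference there (log2, -0.195 and -0.874), so a gap in litter C is not particular to Lynx1, Lypd1 and Chrna3.

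The third modulator, Lypd6, did not share that direction. Its means were 26.8 ± 1.58 CPM in WT and 27.2 ± 2.53 in KO, with KO lower in 3 of 7 pairs. The subunits of the main brain receptors were close to level, Chrna4 at 40.7 ± 2.23 and 41.0 ± 2.39 CPM and Chrnb2 at 104 ± 4.5 and 104 ± 5.07. Chrna7 was at 15.9 ± 0.959 and 15.8 ± 0.661 CPM and Chrna5 at 6.13 ± 0.443 and 5.93 ± 0.167. The fitted log2 differences were 0.0019 for Chrna4, 0.0056 for Chrna7 and 0.0096 for Chrnb2, and each changed sign in some settings. Without WT and KO replicate 7 they were -0.021, -0.0014 and 0.012. That of Chrna5 was -0.062, and -0.038 without that pair. That of Lypd6 was 0.022, and 0.0049 without it.

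The 2 cholinergic markers varied most between litter mates. Chat was at 1.31 ± 0.332 CPM in WT and 1.29 ± 0.288 in KO, and its pair differences ran from -0.87 in litter C to 0.61 in litter F on the log2 scale. Slc5a7 had lowest, median and highest values of 10.6, 12.4 and 13.3 CPM in WT and of 9.3, 11.7 and 13.8 in KO, with pair differences from -0.41 to 0.33. KO was lower in 3 of 7 pairs for each of them. The fitted log2 differences were -0.064 (SE 0.17) for Chat and -0.038 (SE 0.0738) for Slc5a7, and without WT and KO replicate 7 they were -0.19 and -0.11. Without either brain of pair 4, from litter C, both turned positive, to 0.17 for Chat and 0.031 for Slc5a7, and Chat was also at 0.0029 without WT replicate 2. With litter in the model, leaving out either brain of pair 4 takes the whole pair out of the contrast. The direction of Slc5a7 thus rests on that pair, and that of Chat on that pair or on WT replicate 2. For both, litter F gave the largest excess of KO over WT, and it is the pair whose Capn15 values went against the labels.

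**Figure D2:**
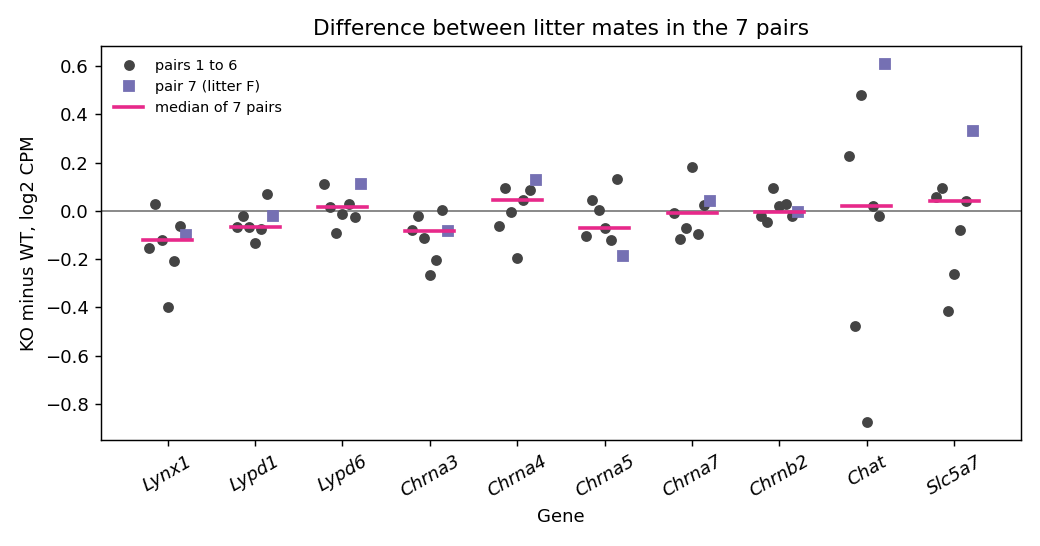
KO minus WT difference in log2 CPM for each of the 7 litter mate pairs, by gene, with the median as a bar and pair 7 (litter F) as a square. For Lynx1, Lypd1 and Chrna3, 6 of 7 pairs lie below 0, while Chat spreads from -0.87 to 0.61.

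Markers of some other cell types also had lower values in KO. All 5 choroid plexus markers had lower values in KO at an unadjusted p under 0.05, beside 2.26% of all genes, and their summed level was 733 to 971 CPM in WT and 600 to 844 in KO. Of 10 markers of large calibre and fast firing neurons, 6 did, with sums of 657 to 835 and 623 to 748 CPM. Of 5 myelin markers 2 did, with all 5 fitted folds below 0, and Mog was below 1 CPM in both groups. Their sums were 93.7 to 260 CPM in WT (median 183) and 108 to 290 in KO (median 145). Of 5 markers of the meninges 3 did, with sums of 115 to 185 and 131 to 166 CPM. Of 11 caudal Hox genes 2 did, with all 11 fitted folds below 0 and sums of 21.9 to 43.1 and 9.62 to 49.0 CPM. In the lists for medial habenula, endothelium and skeletal muscle 1 marker each was higher in KO at an unadjusted p under 0.05, and in the other lists 0 markers passed it in either direction. Summed markers of forebrain cholinergic neurons were at 68.6 to 88.8 CPM in WT and 69.9 to 87.2 in KO. The lists were chosen with earlier results of these data known. Ttr, Nefh, Syt2, Ogn, Hoxb3 and Hoxc4 are among the genes the study called lower in KO, so the counts of their lists are a description. Hoxb3 and Hoxc4 are the 2 Hox genes counted, and Ttr alone was at 846 CPM in WT and 680 in KO. Whether the marker shifts have a part in the values of Lynx1 or Chrna3 was not tested.

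Several members differed between litters. The joint test of the 6 litters, a measure not used to choose the genes, called 4 of 10 at an FDR under 0.05, beside 29.6% of all genes. A call for litter was thus common in these brains and is not particular to the 10. That share counts calls only, and how wide each member's litter difference was beside all genes was not ranked. The called genes were all 3 modulators and Chrna3. The p-values hold for these brains only, and set the litter differences against the spread left after litter, sex and genotype were fitted.

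Lynx1 had the largest litter fold of the 4. Its litter means were 77.5 CPM in A, 48.2 in B, 55.3 in C, 67.6 in D, 61.2 in E and 82.6 in F, a fold of 1.71 (edgeR FDR 4.69e-06). All 4 brains of litter B, of both genotypes and both sexes, were at 46.8 to 50.8 CPM, and only KO replicate 4 of the other litters fell there. Lypd1 ran from 82.0 CPM in litter B up to litter F (1.22-fold, edgeR FDR 0.000496). Chrna3 ran from 12.2 in litter B to 15.3 in litter D (1.25-fold, edgeR FDR 0.0067). Litter B was thus lowest for these 3 genes. Lypd6 ran from 25.1 CPM in litter C to 29.2 in litter F (1.16-fold, edgeR FDR 0.0307), and this call was lost without any 1 of 7 libraries, namely WT replicates 2 and 5 and KO replicates 1, 2, 3, 4 and 7.

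Chrnb2 went the other way, highest in litter B at 110 CPM and lowest in litter D at 99.6 (edgeR FDR 0.0527). It passed the threshold with the likelihood ratio test, DESeq2, RLE factors, no sex term or without WT replicate 3. Chrna4, Chrna5, Chrna7, Chat and Slc5a7 did not pass, with FDR from 0.383 to 0.635. Because Lynx1 and Chrnb2 ran in opposite directions, the ratio of Lynx1 to Chrnb2 per length ran from 0.789 in litter B to 1.49 in litter F. The labels put every brain in 1 batch. The methods describe several libraries sequenced per lane, and the lane of each brain is not given in the sources used here. Anything done litter by litter cannot be told apart from litter itself.

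**Figure D3:**
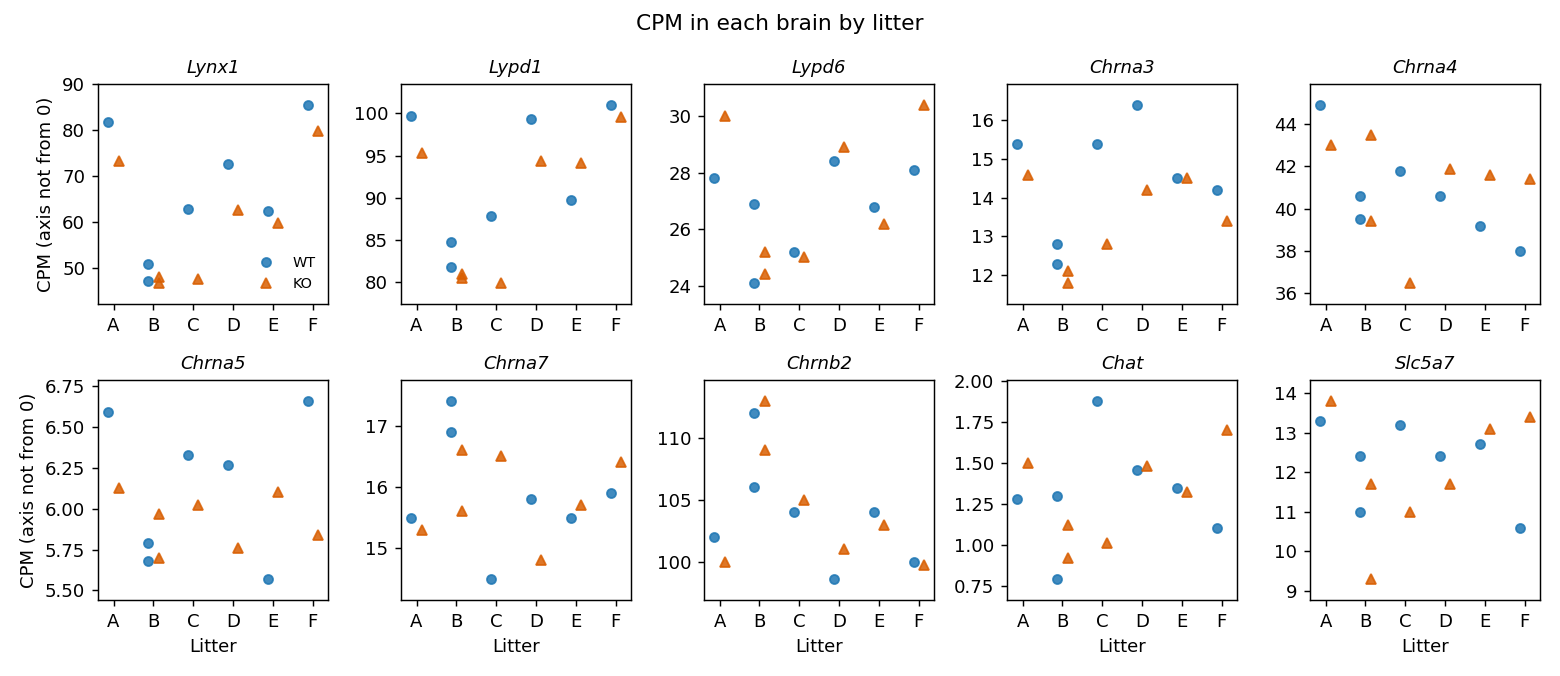
CPM in each brain by litter (A to F), 1 panel per gene, WT as circles and KO as triangles; the vertical axes do not start at 0. Litter B, with 4 brains, holds the lowest Lynx1 values but the highest Chrnb2 values, whose litter means were 48.2 and 110 CPM.

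For sex, the quasi-likelihood test called 0 of the 10 genes, as did the likelihood ratio test and DESeq2, beside 0.0669% of all genes, and 1 had an unadjusted p under 0.05, Lynx1, beside 5.04%. Lynx1 was at 60.6 ± 11.5 CPM in 6 females and 64.7 ± 15.8 in 8 males, yet the fitted female minus male difference within litters was 0.11 on the log2 scale (SE 0.0361, edgeR FDR 0.927). That fitted direction was opposite to the raw means. It also turned without litter in the model. For the other 9 genes the fitted sex difference was between -0.044 and 0.19.

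Across the 14 brains, with genotype means subtracted, the modulators varied together. The log2 CPM of Lynx1 and Lypd1 had a Pearson r of 0.959 (permutation p = 1e-05, the smallest that 100000 permutations can give) and a Spearman rho of 0.952 (permutation p = 1e-05). Adjusted over the 45 pairs of members the values were 0.000225 and 0.00045, and r was 0.946 without the 2 brains farthest from the median. Litter mates are not independent, so these p-values are too small. Within litters, with sex and genotype fitted out as well, r was 0.613, and over the 6 litter means it was 0.962. The within-litter values here and below rest on 6 residual degrees of freedom. Lypd6 followed less closely within litters, with an r to Lynx1 of 0.859 over all brains and of 0.319 within litters.

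Chrnb2 ran against the modulators. Its r to Lynx1 was -0.874 (permutation p = 1e-05) with a rho of -0.899 (permutation p = 4e-05), which are 0.000225 and 0.0009 after adjustment. It was -0.832 without the 2 farthest brains, -0.366 within litters and -0.901 over litter means. The r of Chrna3 to Lynx1, 0.732 over all brains (permutation p = 0.00418, adjusted 0.0209) with a rho of 0.675 (permutation p = 0.0103, adjusted 0.0515), was 0.797 within litters. In all, 12 of 45 pairs had an adjusted permutation p of r under 0.05, 7 with positive and 5 with negative r. Chrna4 and Chrnb2, whose products share receptors, had an r of -0.188.

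**Figure D4:**
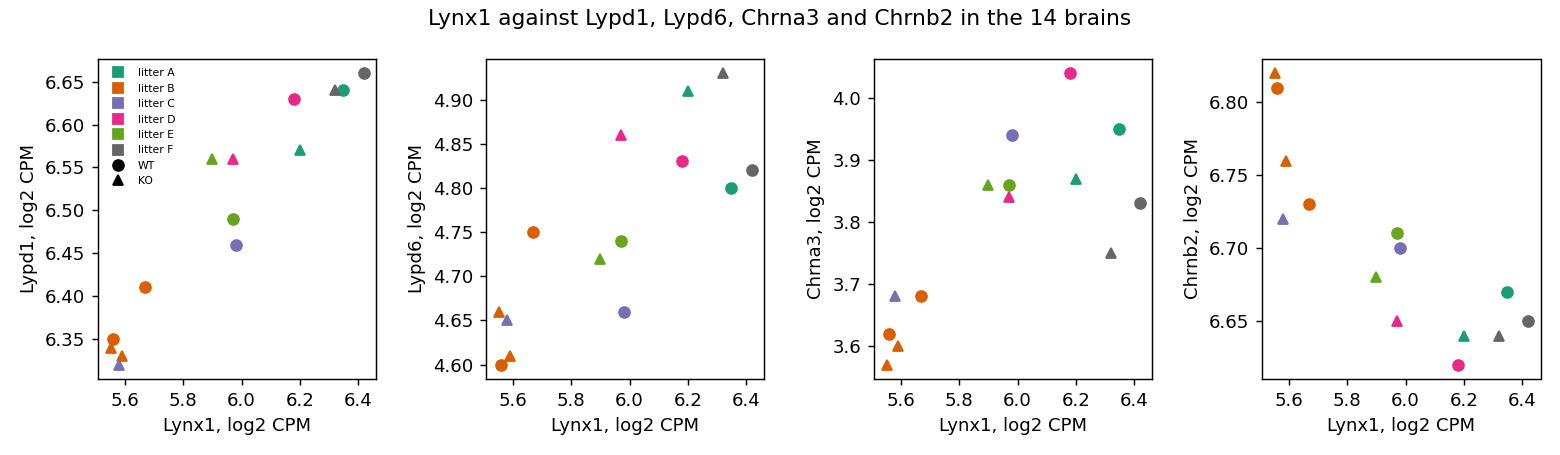
Log2 CPM of Lynx1 (horizontal) against Lypd1, Lypd6, Chrna3 and Chrnb2 (vertical) in the 14 brains, coloured by litter, WT as circles and KO as triangles. Lypd1 rises with Lynx1 (r = 0.959) and Chrnb2 falls (r = -0.874), and the 4 brains of litter B sit together at the low end of Lynx1.

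**Figure D5:**
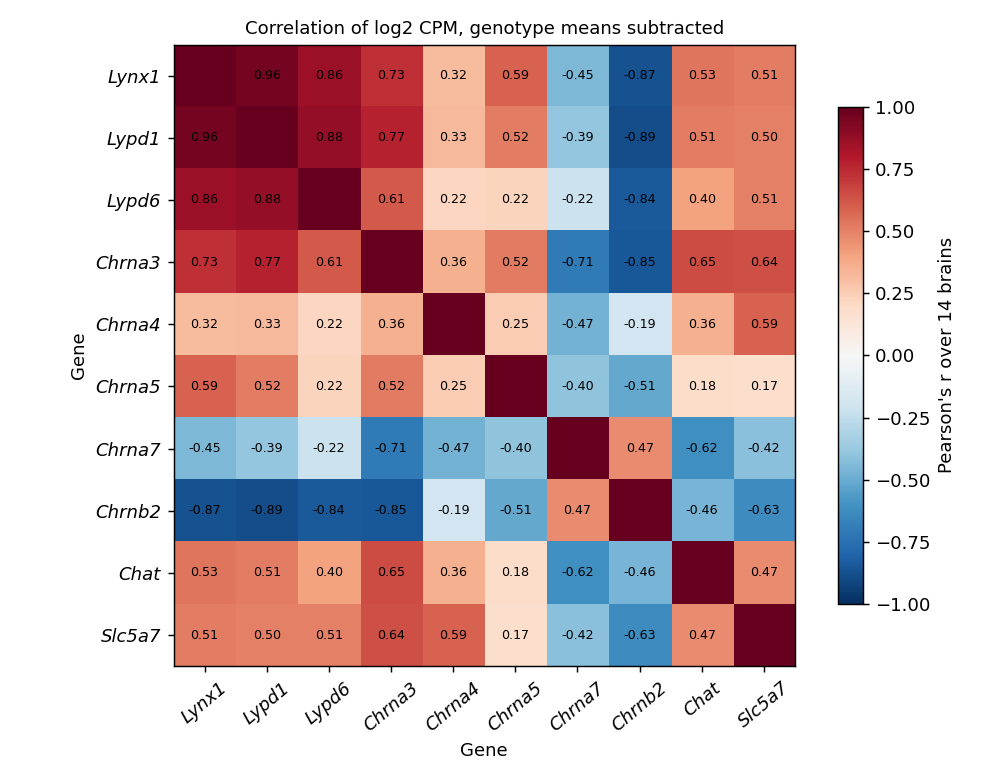
Pearson's r of log2 CPM over 14 brains for each pair of the 10 genes, genotype means subtracted, from blue (-1) to red (1). The modulators and Chrna3 form a block of positive values, and Chrnb2 has negative values with them, down to -0.886 with Lypd1.

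Such likeness was common in these brains. Of 15226 other genes with a mean of at least 1 CPM, 10.9% had an r above 0.8 with Lynx1 and 9.42% an r below -0.8. For Chat the shares were 0.144% and 0.046%. The genes most like Lynx1 over the 14 brains were Mbp (r = 0.984), S100b (0.982), Tspan2 (0.982), Dgat2 (0.981) and Mobp (0.981). Mbp and Mobp encode myelin proteins, S100b a calcium-binding protein of glia and Tspan2 a tetraspanin of oligodendrocytes. Those most like Chrna3 were Rbm28 (0.976), Dcbld2 (0.952), Slc7a4 (0.949), Htr1a (0.943) and Aars2 (0.941). Those most like Chat were Iqcc (0.871), Zdhhc8 (0.862), Scarb1 (0.852), Rtn2 (0.847) and Asic1 (0.846). Over the 4 myelin markers with a mean of at least 1 CPM the median r to Lynx1 was 0.979. It was also high for neurons (0.928), oligodendrocyte precursors (0.855), astrocytes and radial glia (0.843), and large calibre and fast firing neurons (0.828). Single markers fell outside this, such as Tubb3 (-0.119) among neurons and Aldoc (0.0793) among astrocytes and radial glia. The median was lowest for choroid plexus (-0.705), motor neurons (-0.668), red blood cells (-0.544) and forebrain cholinergic neurons (-0.532). Likeness to Lynx1 was thus not particular to myelin.

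The rest of the pathway was read from lists of receptors, modulators and enzymes. Of 11 other nicotinic subunits 5 were in the counts, and of these Chrna6, a subunit of dopamine neurons, alone reached a mean of 1 CPM, with 2.69 ± 0.508 CPM in WT and 2.38 ± 0.245 in KO. None of the 5 was called for genotype or litter by the quasi-likelihood test, and 0 had an unadjusted genotype p under 0.05. Of 24 other Ly6/uPAR genes 10 were in the counts and 0 were called for genotype. The most abundant of them, Ly6h, was at 177 ± 9.46 CPM in WT and 182 ± 9.7 in KO and was higher in KO in 6 of 7 pairs. Ly6a and Gpihbp1, both known from endothelium, had an unadjusted genotype p under 0.05, beside 5.14% of all genes, and were higher in KO. Ly6a was at 1.84 ± 0.545 CPM in WT and 2.31 ± 0.486 in KO. Gpihbp1 was at 0.35 ± 0.123 and 0.55 ± 0.231 CPM, read from 6 to 45 counts per library. Of 4 endothelium markers 1 was higher in KO at that threshold. Of the 10, 2 differed between litters, beside 29.6% of all genes. They were Ly6a (1.77-fold, edgeR FDR 0.0207) and Lypd6b, the closest relative of Lypd6 (1.17-fold, edgeR FDR 0.0246).

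The muscarinic receptors, which pass acetylcholine signals through G proteins, were all in the counts. None of the 5 was called for genotype, 0 had an unadjusted p under 0.05, and 3 differed between litters, beside 29.6% of all genes. Chrm1 had the smallest FDR among them, with 30.2 CPM in litter A and the lowest mean in litter B (1.78-fold, edgeR FDR 6.86e-05), and Chrm4 had the widest litter means, 3.06 CPM in B and 5.67 in F (1.85-fold, edgeR FDR 0.00129). Of the genes that load or break down acetylcholine, 4 of 5 were in the counts and 0 were called for genotype. Of these 4 only Ache, the main enzyme of acetylcholine breakdown, differed between litters (49.0 CPM in B, 63.0 in A, edgeR FDR 0.0153), beside 29.6% of all genes. Slc18a3 was at 3.45 ± 0.612 CPM in WT and 3.18 ± 0.344 in KO. Bche, a second cholinesterase, was at 8.84 ± 1.0 and 7.86 ± 1.08 CPM and lower in KO in 6 of 7 pairs, the 1 gene of this list with an unadjusted p under 0.05. Of 5 factors of receptor assembly 0 were called for genotype and 0 had an unadjusted p under 0.05. For litter 1 was called, Ric3 (edgeR FDR 0.00668), again beside 29.6% of all genes. Ric3 was highest in litter B at 78.6 CPM, as Chrnb2 was. The likelihood ratio test and DESeq2 also called 0 genes of these lists for genotype.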

How the data were processed

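RNA-SEQ counts of 7 WT and 7 Capn15 KO brains were used. The authors trimmed reads with Trimmomatic, aligned them to GRCm38 with STAR and deposited whole-number counts per gene, not normalized, for 17927 genes, with 1 column per brain. The methods name HTSeq-count and the labels featureCounts. The strand setting is not given in the sources used here. Genotype and replicate came from the labels, and the column names gave litter and sex. Replicate numbers pair litter mates, and over 15227 genes the deviations of paired brains from their group means correlated from -0.467 to 0.443.

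Total counts were 37620954 to 70910163 per library. Intervals were not needed, and the floor of 3 counts covers counting error only. Libraries differed by a chi-square of at least 4.67 per gene, so none was a copy. Counts were scaled with TMM and tested in edgeR 4.0.16 (R 4.3.3, limma 3.58.1) with a quasi-likelihood fit of genotype, sex and litter over all genes, with 6 residual degrees of freedom and Benjamini-Hochberg adjustment at 0.05. The fit was tested on simulated data. The log2 CPM used a prior count of 2, and lengths came from GENCODE M21. Alternatives were the likelihood ratio test, DESeq2 1.42.0, RLE factors, a filter, other covariates, a replicate block and each library left out. Correlations used 100000 permutations (two-sided, Python 3.11.15, scipy 1.17.1, numpy 2.4.6), tables were joined with pandas 2.3.3, and plots came from matplotlib 3.10.9. The members and gene lists were chosen with earlier results of these data known. The genes named are the members, pathway genes, the 5 genes most like Lynx1, Chat and Chrna3, Capn15, and others named after their values were seen. No sequence was read from the samples.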

Additional observations from a re-analysis of the deposited data

How the results depend on the processing

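Over all genes the genotype count, 1 by edgeR's quasi-likelihood test (922 at an unadjusted p under 0.05), was 34 with the likelihood ratio test, 22 with DESeq2, 2 without sex, 0 with the replicate block (811 at an unadjusted p under 0.05), 7 without WT and KO replicate 7, and 0 to 7 with each library left out. The replicate block, whose numbers pair litter mates, called 0 of the 10 genes for genotype, as the fit with litter did. The sex count, 12, was 36 with the likelihood ratio test and 19 with DESeq2. The litter count stayed within 1.5 times of 5301, and no replicate block could be fitted to it.

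Fitted sex differences (log2) turned without litter for Lynx1 (-0.06072), Lypd1 (-0.01618) and Chrnb2 (0.009345). With 1 library left out they ranged from -0.02972 to 0.01238 for Lypd6, -0.01981 to 0.08276 for Chrna4, -0.1081 to 0.01146 for Chrna7, -0.07137 to 0.317 for Chat and -0.03513 to 0.0812 for Slc5a7. The causes were not tested. Between 3 and 5 of the 10 genes were called for litter over the settings, a count made after the data were seen. Chat, at 32 to 94 counts per library, is limited by depth.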
